A study of Mus musculus with 6 samples.

Results

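The genes described here make, carry, sense and break down prostaglandins, and there were 10 of them: Hpgd, Ptgs1, Ptgs2, Ptges, Hpgds, Ptgds, Ptger2, Ptger4, Tbxas1 and Slco2a1. They were followed in mouse bone marrow cells that carry MLL-AF9, an oncogene formed by fusion of a pair of genes in acute leukaemia, with Mn1 intact or deleted, and they were chosen from the genes of the pathway with the difference between these 6 arrays already known. Of the 10 genes, 9 had at least 1 probe set that the platform annotation assigns to a single gene. They had 18 such probe sets, out of 34945 probe sets for 18193 genes. Ptgs1, the constitutive cyclooxygenase, had none in the annotation used and was not analysed here. The comparison set 3 samples of MLL-AF9/Mn1null cells, in which Mn1 had been deleted with CRISPR-Cas9, against 3 samples of MLL-AF9/Mn1wt cells, in which it had not. Mn1 encodes a transcriptional cofactor. All 6 samples were sorted mouse bone marrow cells that had received a control vector with EGFP, a green fluorescent protein, and that grew with interleukin 3, interleukin 6 and stem cell factor. The labels give no age, strain or time in culture, and do not say whether the Mn1null cells are 1 clone or whether replicates came from separate cultures. The spread between samples, on which every p-value rests, may therefore be technical.

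Prostaglandins are short-lived signals made from arachidonic acid, which phospholipases cut from membrane lipids. A cyclooxygenase, encoded by Ptgs1 or Ptgs2, turns it into prostaglandin H2. Separate synthases then make prostaglandin E2 (Ptges), prostaglandin D2 (Hpgds and Ptgds) or thromboxane A2 (Tbxas1). Among the receptors for prostaglandin E2, EP2 (Ptger2) and EP4 (Ptger4) raise cyclic AMP. The signal ends when the transporter encoded by Slco2a1 carries prostaglandins into the cell and the dehydrogenase encoded by Hpgd oxidises them. In blood-forming tissue, mast cells are a known source of prostaglandin D2, platelets and macrophages of thromboxane, and prostaglandin E2 is known to act on stem and progenitor cells.

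The promoters of Hpgd, Tbxas1 and Ptger4, the measured genes with the widest gaps between the groups, are shown first, with that of Ptgs2 as the inducible enzyme at the head of the pathway. Each runs from 250 bases before to 50 bases after the start of the gene in RefSeq (GRCm38.p6), 5′ to 3′ on the gene's own strand. All 10 genes matched a promoter. Capitals mark matches, on either strand, to any of 10 motifs. These were the TATA box, spelled TATAAA, the GC box, which reads GGGCGG, and the box named CCAAT for its letters. The cyclic AMP response element was searched in full, as TGACGTCA, and in part, as TGACG. The motif of GATA factors was searched as AGATAA, the E-box as CACGTG, the PU.1-type ETS motif as GAGGAAG, the RUNX motif as TGTGGT and the C/EBP motif as TTGCGCAA. The full response element contains its part. The promoter of Hpgd lies at chr8:56294302-56294601 (plus strand), that of Tbxas1 at chr6:38918736-38919035 (plus strand), that of Ptger4 at chr15:5244138-5244437 (minus strand) and that of Ptgs2 at chr1:150099781-150100080 (plus strand).
Hpgd: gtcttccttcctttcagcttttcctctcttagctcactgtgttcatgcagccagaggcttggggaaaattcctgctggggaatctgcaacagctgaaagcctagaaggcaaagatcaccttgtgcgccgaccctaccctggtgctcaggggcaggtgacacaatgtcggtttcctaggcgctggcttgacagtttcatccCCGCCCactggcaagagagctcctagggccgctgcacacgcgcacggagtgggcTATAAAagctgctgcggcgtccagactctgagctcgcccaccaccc
Tbxas1: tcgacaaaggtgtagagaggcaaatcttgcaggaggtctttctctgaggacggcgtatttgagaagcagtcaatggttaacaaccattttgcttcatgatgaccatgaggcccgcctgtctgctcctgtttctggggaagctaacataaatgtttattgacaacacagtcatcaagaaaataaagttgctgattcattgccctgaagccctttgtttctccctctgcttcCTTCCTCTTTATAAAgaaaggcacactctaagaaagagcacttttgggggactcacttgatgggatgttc
Ptger4: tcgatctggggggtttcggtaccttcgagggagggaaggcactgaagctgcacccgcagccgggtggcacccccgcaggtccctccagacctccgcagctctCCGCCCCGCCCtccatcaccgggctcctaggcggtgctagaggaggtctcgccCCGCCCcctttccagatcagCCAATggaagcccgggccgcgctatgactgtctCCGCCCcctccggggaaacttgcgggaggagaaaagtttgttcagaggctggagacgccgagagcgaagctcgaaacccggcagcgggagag
Ptgs2: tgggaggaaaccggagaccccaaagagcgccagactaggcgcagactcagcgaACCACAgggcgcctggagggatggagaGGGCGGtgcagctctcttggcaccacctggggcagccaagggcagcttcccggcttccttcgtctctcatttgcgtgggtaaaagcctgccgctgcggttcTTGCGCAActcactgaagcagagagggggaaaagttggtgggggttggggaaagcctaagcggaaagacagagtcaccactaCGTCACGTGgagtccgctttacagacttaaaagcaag

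The Hpgd promoter held a GC box on the minus strand at -50 to -45 and a TATA box at 5 to 10, counted from 1 at the annotated start, so the TATA box lies just inside the annotated gene. Tbxas1 held TATA boxes on both strands that overlap between -13 and -6, beside a PU.1-type ETS motif on the minus strand at -20 to -14. Ptger4 held no TATA box, 4 GC boxes and a CCAAT box, in a stretch of 67.0% G and C. Ptgs2 held the C/EBP motif at -69 to -62, which 0.183% of 32851 promoters of the same length hold, and an E-box at 17 to 22 that overlaps a partial cyclic AMP response element. A TATA box was found in 3 of the 10 members' promoters and in 13.6% of all promoters, a GC box in 5 and in 35.7%, the ETS motif in 4 and in 13.6%, and the RUNX motif in 2 and in 16.8%. The CCAAT box was found in 2 and in 37.4%, the E-box in 1 and in 7.15%, and the partial response element in 1 and in 20.8%. The full response element (1.79% of all promoters) and the GATA motif (11.2%) were found in 0 of the 10. These are matches of letters in short windows and describe no binding.

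Values are log2 expression as deposited, after RMA, which corrects background, normalizes arrays and joins the probes of a set. The 6 array medians lay between 5.16 and 5.22. Correlations over all probe sets were 0.997 to 0.998 within groups and 0.981 to 0.983 between them. The table has no detection calls, so a low value cannot be read as absence. The median of all probe sets was 5.21 and the 30th percentile 4.07. The single Mn1 probe set gave 4.35 ± 0.20 for Mn1wt and 4.13 ± 0.071 for Mn1null (SD, n = 3 each), with overlapping groups and near the 30th percentile, so it could not check the labels. Where it lies relative to the deletion is unknown here. Control transcripts of the labelling step were lower in Mn1null at their 5′ probe sets (7.21 to 7.41 against 6.42 to 6.53, with 8 of 8 probe sets apart), a difference of -0.85, and differed by -0.49 and -0.30 at the middle and 3′ probe sets. The part of this in the results that follow was not tested.

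Hpgd, the gene that inactivates prostaglandins, was far lower in Mn1null. On its brighter probe set it read 12.47, 12.41 and 12.36 in the 3 Mn1wt samples and 5.39, 5.52 and 5.26 in the 3 Mn1null samples. The difference was -7.03 ± 0.080 (SE from limma, the linear model used throughout; 95% interval -7.22 to -6.84), or 130.0-fold. By absolute size this was number 1 of 45037 probe sets. Only the dimmer Hpgd probe set is of the type designed for 1 transcript. The dimmer Hpgd probe set read 9.84, 10.08 and 9.97 against 5.66, 5.66 and 5.71, a difference of -4.28 ± 0.076 or 19.5-fold, which was number 44. The groups were far apart on both probe sets, and the Mn1null values lay close to the median of all probe sets. This comparison was used to choose the gene, so the values are a description. In bulk samples, fewer cells of a type and less RNA per cell cannot be told apart.

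**Figure D1:**
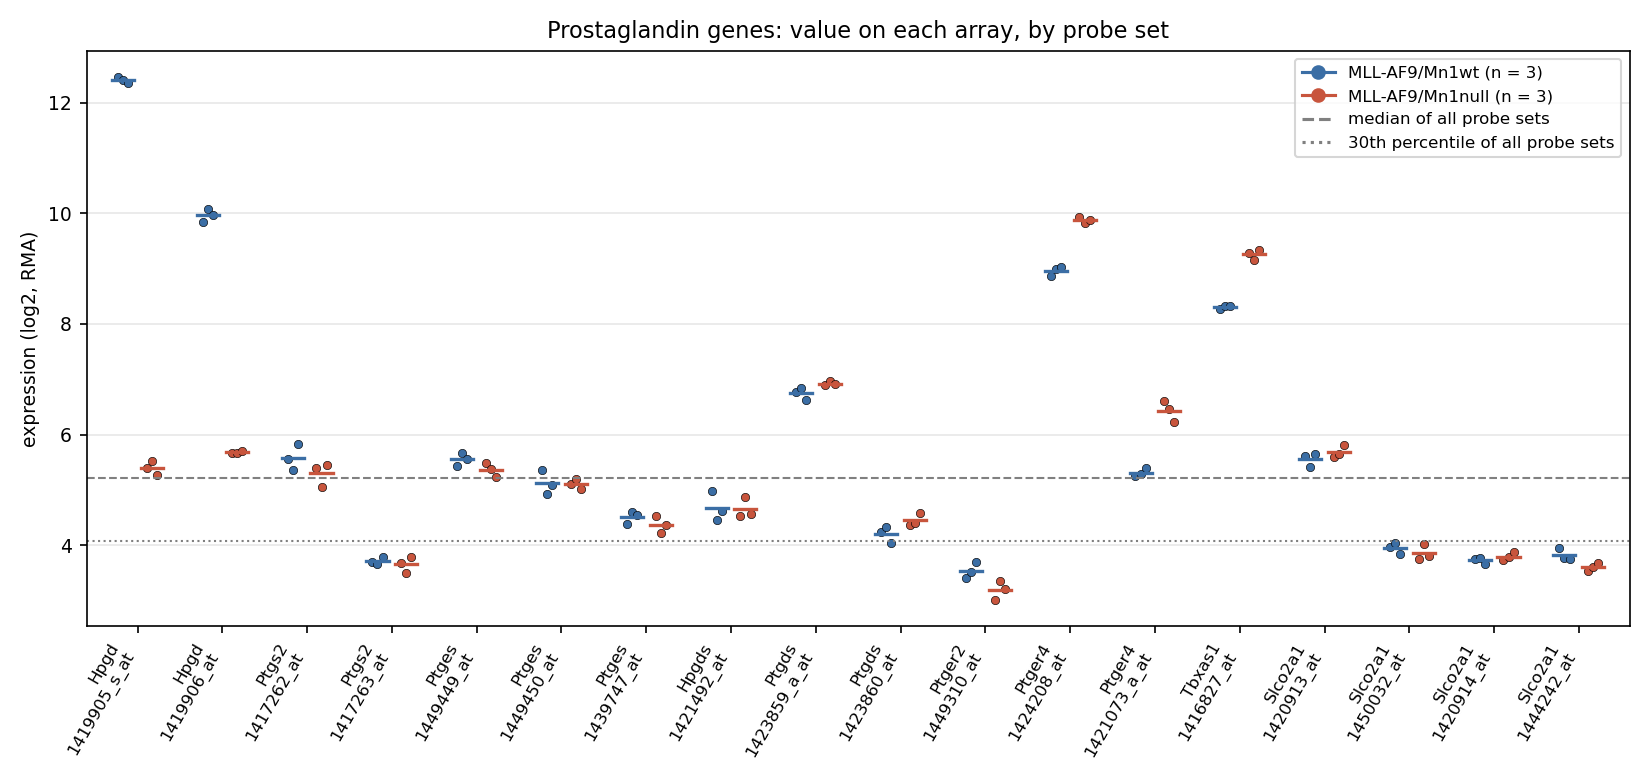
Log2 expression (vertical axis) of each of the 18 member probe sets (horizontal axis) on each array, blue for the 3 Mn1wt and red for the 3 Mn1null samples, with group means as short bars and the median and 30th percentile of all probe sets as grey lines. Hpgd drops from 12.41 to 5.39 on its brighter probe set, Ptger4 and Tbxas1 are higher in Mn1null, and most other probe sets lie near the grey lines in both groups.

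The 5 genes outside the members with the profile most like that of Hpgd were Mef2c (0.20), Lhfp (0.30), F13a1 (0.68), Ctss (0.84) and Col19a1 (1.06), by root mean square distance over the 6 arrays after centring each gene on its mean. Mef2c, a transcription factor gene, went from 11.18 to 4.49. F13a1, a coagulation factor gene that monocytes express, went from 12.40 to 6.71. Since the arrays form 2 groups, likeness here mostly reflects the size of the difference between them.

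The inducible enzymes at the head of the pathway read near the median of all probe sets in both groups. Ptgs2, the inducible cyclooxygenase, read 5.55, 5.36 and 5.83 in Mn1wt and 5.40, 5.06 and 5.45 in Mn1null on its brighter probe set. The groups overlapped, and the difference of -0.27 had a 95% interval of -0.61 to 0.06. On the other Ptgs2 probe set the means were 3.71 and 3.65, below the 30th percentile. Ptges, the inducible prostaglandin E synthase, read 5.44, 5.66 and 5.55 against 5.48, 5.38 and 5.24. Its groups overlapped on all 3 probe sets, whose differences were -0.19 (-0.39 to 0.02), -0.01 (-0.27 to 0.25) and -0.14 (-0.36 to 0.08).

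The 2 prostaglandin D synthases are unrelated proteins that catalyse the same step. Hpgds, the form of mast cells and other blood cells, read 4.97, 4.45 and 4.62 in Mn1wt and 4.52, 4.87 and 4.56 in Mn1null. The difference was -0.03 (95% interval -0.38 to 0.31), with overlapping groups. Ptgds, a secreted lipocalin that also carries small lipids, read 6.77, 6.84 and 6.63 against 6.89, 6.97 and 6.91, so its 3 Mn1null values lay just above the Mn1wt values. The difference was 0.18 (0.01 to 0.35), and its dimmer probe set gave 0.25 (0.03 to 0.47), again without overlap.

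Tbxas1, which makes thromboxane A2, read 8.27, 8.32 and 8.33 in Mn1wt and 9.29, 9.16 and 9.33 in Mn1null on its 1 probe set. Every Mn1null sample was above every Mn1wt sample, and the difference was 0.96 ± 0.067 (SE; 95% interval 0.80 to 1.11), or 1.94-fold.

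Ptger4, the EP4 receptor, read 8.86, 8.99 and 9.03 in Mn1wt and 9.93, 9.83 and 9.89 in Mn1null on its brighter probe set. The groups did not overlap, and the difference was 0.92 ± 0.069 (SE; 0.76 to 1.08), or 1.89-fold. Its dimmer probe set read 5.25, 5.29 and 5.40 against 6.60, 6.46 and 6.22, a difference of 1.11 (0.87 to 1.36), so both intervals share part of their range. Ptger2, the EP2 receptor, read 3.41, 3.51 and 3.70 in Mn1wt and 3.01, 3.35 and 3.21 in Mn1null, all below the 30th percentile of 4.07. Its difference of -0.35 (-0.61 to -0.09) was without overlap.

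Slco2a1, the uptake transporter that delivers prostaglandins to the enzyme encoded by Hpgd, showed no difference of that kind. Its brightest probe set read 5.61, 5.41 and 5.65 in Mn1wt and 5.59, 5.65 and 5.81 in Mn1null, with overlapping groups and a difference of 0.13 (-0.09 to 0.34). Its other 3 probe sets lay below the 30th percentile, with differences of -0.09, 0.07 and -0.21, and on the last of these the groups did not overlap.

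Of the 18 member probe sets, 5 passed an adjusted p of 0.05, 3 of them higher in Mn1null (Ptger4 on both and Tbxas1) and 2 lower (Hpgd on both). Of all 45037 probe sets, 27.8% passed, 13.2% higher and 14.7% lower. The groups did not overlap on 9 of the 18, against 41.1% of all probe sets. With each gene taken by its brightest probe set on average, 3 of 9 members passed, 2 higher and 1 lower, against 34.7% of 18193 genes (16.7% higher, 18.0% lower), and 5 of 9 did not overlap, against 49.4%. The median difference was -0.03 over the 9 genes and 0.000 over all genes. Since the members were chosen on this comparison, nothing is read from these counts. By absolute difference, Ptger4 was number 1308 on its dimmer probe set and 1888 on its brighter one, and Tbxas1 was number 1758. The 13 probe sets of the other 6 genes lay between number 9162 (Ptger2) and number 43657 (Ptges).

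**Figure D2:**
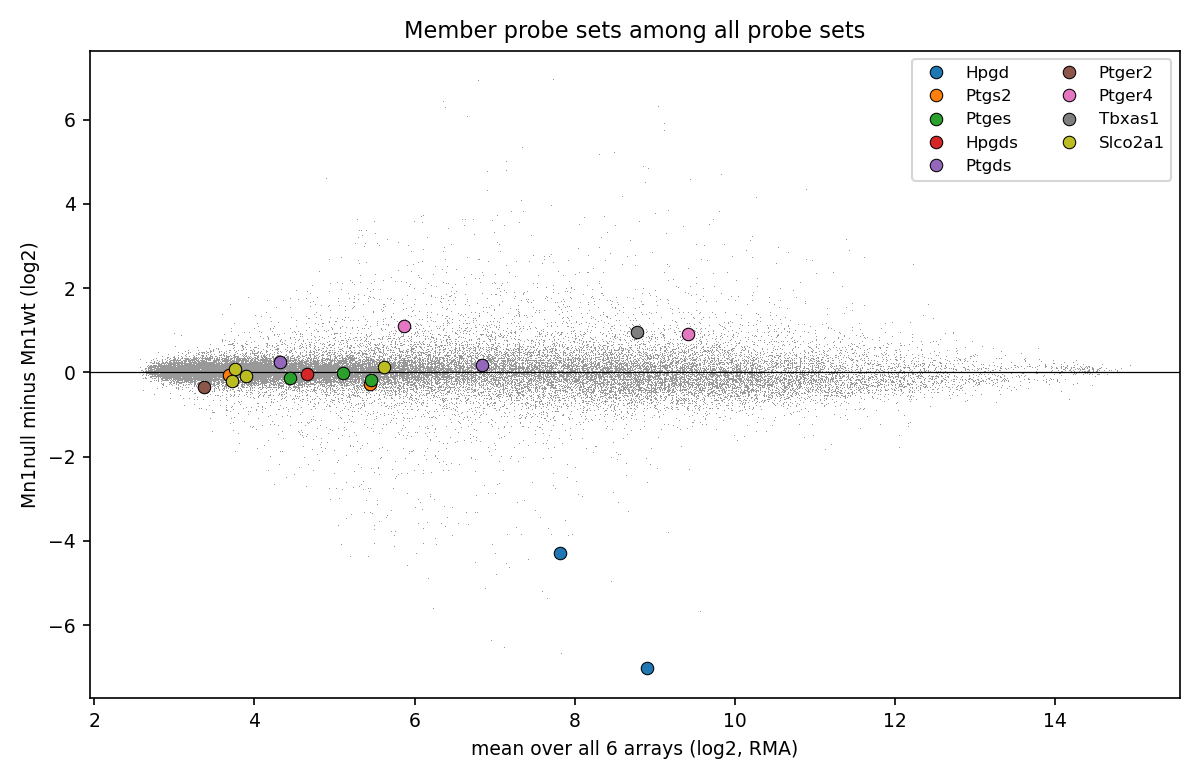
Difference between the groups (Mn1null minus Mn1wt, log2, vertical axis) against the mean over all 6 arrays (log2, horizontal axis) for all 45037 probe sets (grey) and the 18 member probe sets (coloured by gene). The 2 Hpgd probe sets lie at -7.03 and -4.28 toward the lower edge, Ptger4 and Tbxas1 near 1, and the other members on or close to 0.

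The other genes of the pathway were read from 7 lists by role, each gene by its brightest probe set on average. The lists were chosen with earlier results of these data known, so their counts and shares are a description. Adjusted p-values come from the same limma fit over all 45037 probe sets, with Benjamini-Hochberg adjustment. Rose and fell are used for genes past an adjusted p of 0.05, in Mn1null relative to Mn1wt. The groups did not overlap for any gene named as risen or fallen.

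Among the other prostanoid receptors, Ptger3 and Ptgir rose and Pparg and Tbxa2r fell. Of 9 measured, 2 rose and 2 fell (median difference -0.08), and 44.4% passed the threshold against 34.7% of all genes. The 9 include Ptgfrn, which encodes a regulator of the prostaglandin F receptor and did not pass (-0.05, adjusted p = 0.644). Ptger3, which encodes the EP3 receptor that lowers cyclic AMP, read 6.53, 6.45 and 6.72 in Mn1wt and 8.40, 8.27 and 8.17 in Mn1null. It rose by 1.71 ± 0.095 (SE), or 3.28-fold (adjusted p = 1.37e-05). A second Ptger3 probe set, at 3.53 and 3.72 and so below the 30th percentile, gave 0.20 (adjusted p = 0.285).

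Ptgir, the prostacyclin receptor, which raises cyclic AMP, read 6.65, 6.48 and 6.75 in Mn1wt and 7.86, 7.70 and 7.75 in Mn1null. It rose by 1.14, or 2.21-fold (adjusted p = 6.41e-05). Tbxa2r, the receptor for the product of Tbxas1, read 7.39, 7.47 and 7.23 against 6.42, 6.99 and 6.94. Its fall of 0.58 (adjusted p = 0.0265) was lost without Mn1wt replicate 1 (adjusted p = 0.0755) or replicate 2 (0.0844), and without Mn1wt replicate 1 only 1 receptor fell. Pparg, a nuclear receptor that a breakdown product of prostaglandin D2 can bind, read 6.02, 6.43 and 6.76 against 4.39, 4.66 and 4.50. It fell by 1.89, or 3.71-fold (adjusted p = 0.000191). Ptger1, Ptgdr, Ptgdr2 and Ptgfr, further receptors for prostaglandins E2, D2 and F, gave -0.22, -0.02, -0.12 and -0.08, with adjusted p-values from 0.189 to 0.889.

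Prostanoid synthases and reductases outside the members moved both ways. Of 9 measured, 2 rose and 4 fell (median difference 0.14; 66.7% past the threshold). Of all genes, 34.7% passed. Ptges2, a membrane-associated prostaglandin E synthase, went from 8.51 ± 0.13 in Mn1wt to 7.77 ± 0.063 in Mn1null (SD, n = 3 each), a fall of 0.74 (adjusted p = 0.000452). The carbonyl reductase genes Cbr1 and Cbr3, of which the first can convert prostaglandin E2 to F, fell by 0.66 and 0.56. Prxl2b, a prostamide and prostaglandin F synthase, fell by 0.52. Akr1c18, an aldo-keto reductase of steroid and prostaglandin metabolism, rose by 0.77 (adjusted p = 0.00904), and Gstm2, a glutathione transferase, by 0.80. Both belong to families of close relatives whose probe sets may read more than 1 gene. Ptgis, the prostacyclin synthase, did not pass (0.14, adjusted p = 0.525).

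Breakdown and transport genes other than Hpgd and Slco2a1 held no fall beyond 0.31. Of 13 measured, 3 rose and 2 fell (median difference 0.13), and 38.5% passed the threshold against 34.7% of all genes. Ptgr1, a reductase that acts on the product of Hpgd, read 11.75, 11.80 and 11.75 in Mn1wt and 11.49, 11.43 and 11.46 in Mn1null, a fall of 0.31 (adjusted p = 0.00514). Ptgr2, a second such reductase, rose by 0.56 ± 0.062 (SE; adjusted p = 0.000422), with 3 other probe sets between 0.24 and 0.87 that passed and 2 dim ones that did not. Cyp4f18, a cytochrome P450 that hydroxylates leukotriene B4 and related lipids, read 4.61, 4.44 and 4.53 against 7.20, 7.45 and 7.50. It rose by 2.86 (adjusted p = 1.14e-06), but its other probe set, with Mn1wt and Mn1null means of 4.60 and 4.38, gave -0.22 (adjusted p = 0.253). Of the export pumps, Abcc1 rose by 0.40, or 0.96 on another probe set, and Abcc4, a known exporter of prostaglandin E2, fell by 0.23. The Abcc4 call was lost when any 1 array except Mn1wt replicate 1 was left out (adjusted p = 0.0522 to 0.0752), and 1 gene of the list then fell.

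**Figure D3:**
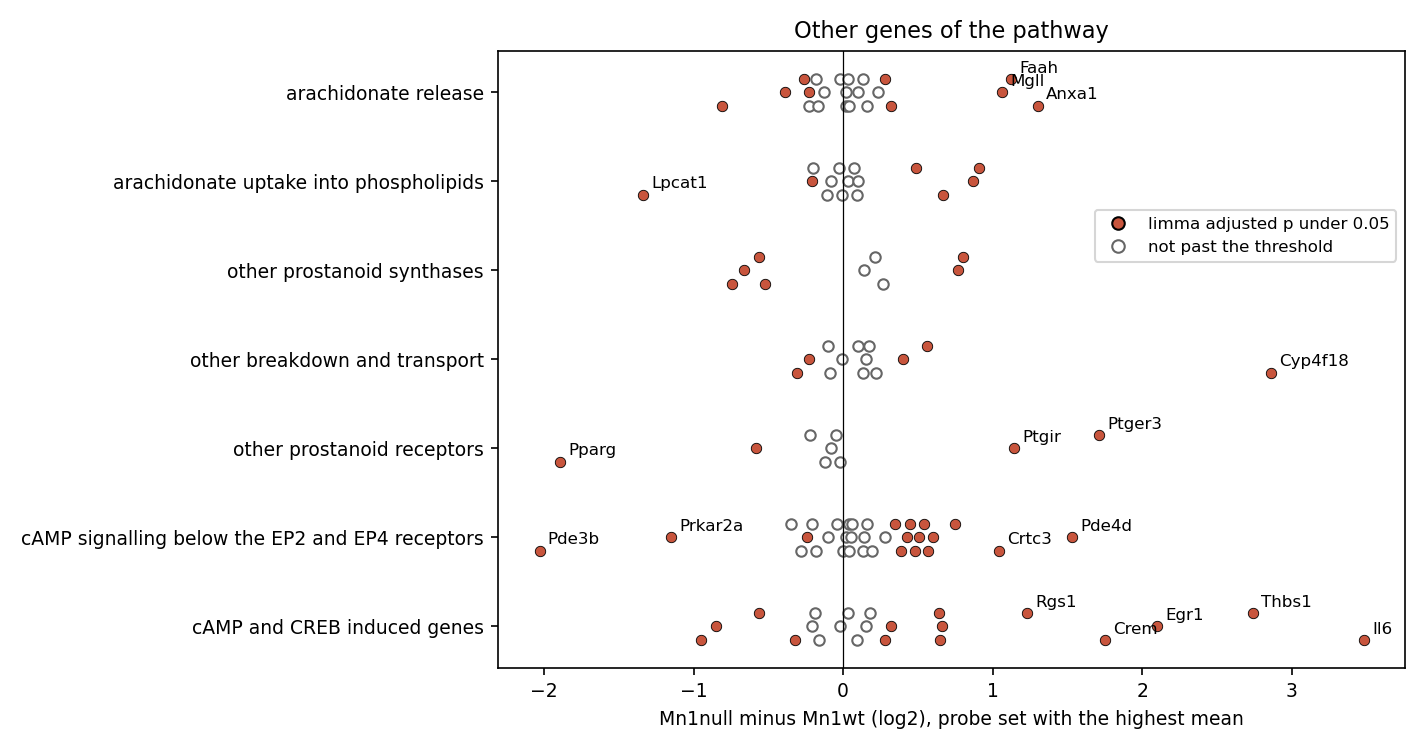
Difference between the groups (Mn1null minus Mn1wt, log2, horizontal axis) for each gene of the 7 pathway lists (vertical axis), filled where limma's adjusted p was under 0.05 and named where the difference exceeds 1 in size. Each list holds filled points on both sides of 0, and the widest rises are those of Il6 (3.48), Cyp4f18 (2.86) and Thbs1 (2.74).

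Genes that release arachidonic acid, or that regulate its release in either direction, also went both ways. Of 22 measured, 5 rose and 4 fell (median difference 0.03), and 40.9% passed the threshold against 34.7% of all genes. Pla2g4a, the cytosolic phospholipase that supplies cyclooxygenases, read 10.82, 10.79 and 10.86 in Mn1wt and 10.47, 10.50 and 10.34 in Mn1null, a fall of 0.39 (adjusted p = 0.00386). Anxa1, an inhibitor of phospholipase activity and a glucocorticoid target, went from 9.67 ± 0.058 in Mn1wt to 10.96 ± 0.027 in Mn1null (SD, n = 3 each), or 2.46-fold up (adjusted p = 6.02e-06). The endocannabinoid hydrolase genes Faah (1.12) and Mgll (1.06), whose products also free arachidonic acid, rose, as did Pla2g12a (0.32). One of 3 further Mgll probe sets gave 0.10 (adjusted p = 0.673). Plaat3, a phospholipase and acyltransferase, fell by 0.81.

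Plaa, a phospholipase-activating protein gene, fell by 0.26 and Abhd6, a lipid hydrolase gene, by 0.23. These 2 calls were each lost without any 1 array except Mn1wt replicate 2 (adjusted p = 0.0633 to 0.0879 for Plaa and 0.0509 to 0.0594 for Abhd6), and without Mn1wt replicate 1 or any 1 Mn1null array 2 genes of the list fell. The Plaa call was also lost with quantile normalization (adjusted p = 0.052) and the Abhd6 call when its probe sets were averaged (-0.12; adjusted p = 0.0849). Other probe sets gave -0.52 for Plaa (adjusted p = 0.00186) and -0.01 for Abhd6 (0.92). Of the secreted phospholipase genes, Pla2g12a rose, as given above, and none of Pla2g2d, Pla2g2e, Pla2g2f, Pla2g3, Pla2g5 and Pla2g10 passed limma's test, and none had an unadjusted p under 0.05.

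The uptake list held genes that put fatty acids, not arachidonic acid alone, into phospholipids, and genes on the path to arachidonic acid. Of these, Mboat7, Fads2, Lpcat2 and Lpcat3 rose and Lpcat1 and Mboat1 fell. Of 15 measured, 4 rose and 2 fell (median difference 0.03), and 40.0% passed the threshold against 34.7% of all genes. Mboat7, which loads arachidonate into phosphatidylinositol, rose by 0.87 ± 0.071 (SE; adjusted p = 9.39e-05), Lpcat3 by 0.49 and Lpcat2, which also makes platelet-activating factor, by 0.67. Fads2, a desaturase on the path to arachidonic acid, rose by 0.91. Lpcat1, which prefers saturated fatty acids, went from 9.13, 8.93 and 9.11 to 7.80, 7.53 and 7.82, a fall of 1.34 (adjusted p = 5.77e-05). Of its 4 other probe sets, 2 fell (differences of -1.29 and -1.14), and 2 dim ones did not pass. Mboat1 fell by 0.21 (adjusted p = 0.037), but its other probe set rose by 0.50 (adjusted p = 0.00677). This fall was lost when any 1 array was left out (adjusted p = 0.058 to 0.122), and 1 gene of the list then fell, or 2 without Mn1wt replicate 2.

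Genes of cyclic AMP signalling, which lies below EP2 and EP4, held changes both ways. Of 32 measured, 12 rose and 3 fell (median difference 0.13), and 46.9% passed the threshold against 34.7% of all genes. Adcy9, an adenylyl cyclase, went from 6.31 ± 0.095 in Mn1wt to 7.06 ± 0.11 in Mn1null (SD, n = 3 each) (adjusted p = 0.000443), with 3 other probe sets between 0.70 and 0.81. Crtc3, a coactivator of the transcription factor CREB, rose by 1.04, and Arrb1, an arrestin that desensitises receptors, by 0.60. The other 8 genes that rose lay between 0.35 (Gnas) and 0.57 (Prkacb).

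Pde4d and Pde3b, which encode phosphodiesterases that break cyclic AMP down, went opposite ways. Pde4d read 7.38, 7.02 and 7.46 in Mn1wt and 8.79, 8.83 and 8.81 in Mn1null, 2.88-fold up (adjusted p = 6.43e-05), with a second, dim probe set at 0.17 (adjusted p = 0.0742). Pde3b read 6.45, 6.56 and 6.77 against 4.48, 4.54 and 4.66, 4.1-fold down (adjusted p = 6.02e-06). Prkar2a, a regulatory subunit of protein kinase A, fell by 1.15 ± 0.058 (SE; adjusted p = 8.97e-06). Creb1, which encodes CREB, fell by 0.24 (adjusted p = 0.0317), a call that was lost without any 1 array except Mn1null replicate 1 (adjusted p = 0.0634 to 0.102), with quantile normalization (0.0534) and when its probe sets were averaged (-0.14; adjusted p = 0.0847). Another Creb1 probe set fell by 0.72 and its other 4 did not pass.

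Genes known to respond to cyclic AMP and CREB did not move as one. Of 22 measured, 10 rose and 4 fell (median difference 0.17), and 63.6% passed the threshold against 34.7% of all genes. Il6, a cytokine gene, read 6.72, 6.84 and 6.73 in Mn1wt and 10.30, 10.21 and 10.22 in Mn1null, 11.2-fold up (adjusted p = 9.24e-08). Crem, whose short form is a feedback product of the pathway, read 4.32, 4.29 and 4.52 against 6.21, 6.09 and 6.08, 3.37-fold up (adjusted p = 6.02e-06). Of its 3 other probe sets 1 passed, at 0.47. Egr1 rose 4.3-fold and Thbs1 6.7-fold. Fos fell by 0.95 (adjusted p = 0.000951), Sik1 by 0.85, Fosb by 0.56 and Odc1 by 0.32. Fosb was below the 30th percentile on all 6 arrays. Nr4a1, Nr4a2 and Nr4a3, which cyclic AMP induces quickly in many cells, gave -0.16, -0.21 and -0.02 (adjusted p = 0.167 to 0.929). Many genes of this list also answer to other signals.

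**Figure D4:**
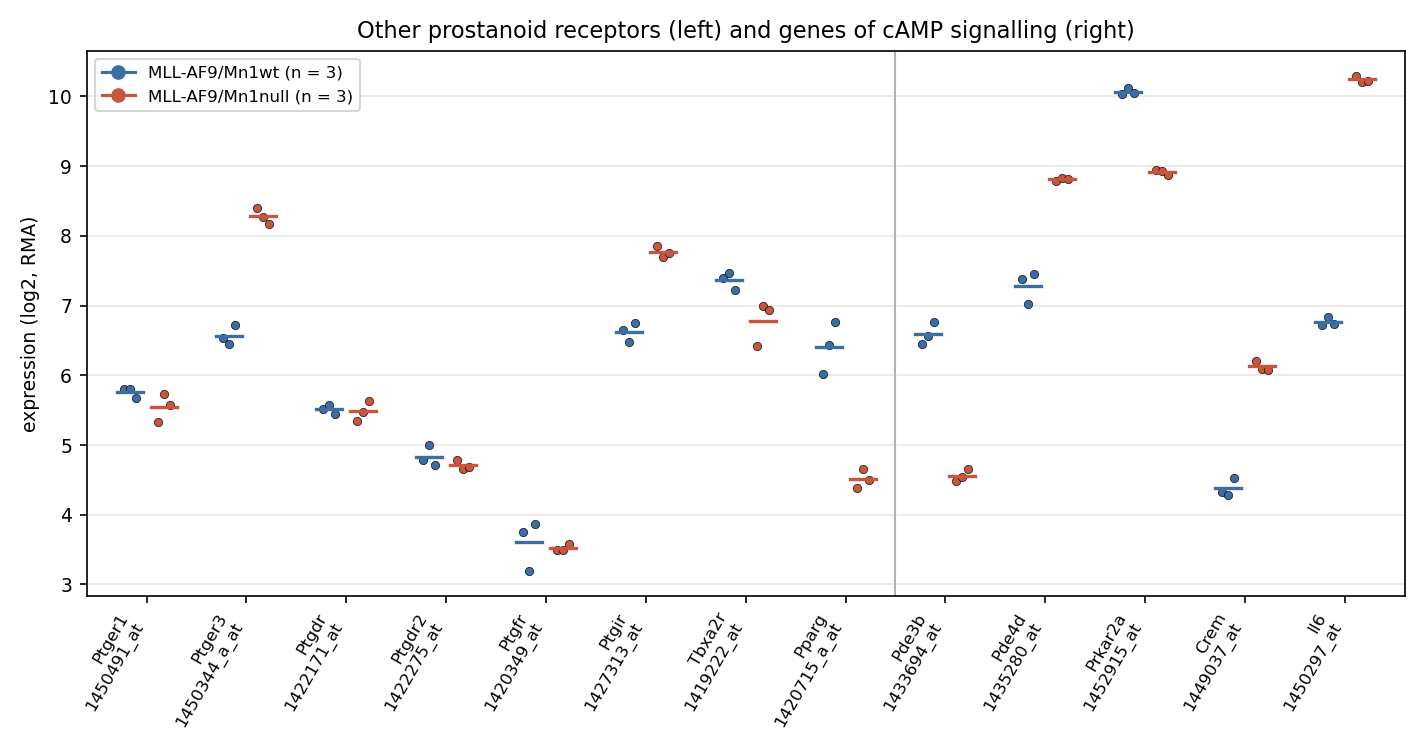
Log2 expression (vertical axis) of 8 other prostanoid receptors (left of the line) and 5 genes of cyclic AMP signalling (right) on each array, blue for Mn1wt and red for Mn1null (n = 3 each), with group means as short bars. Ptger3, Ptgir, Pde4d, Crem and Il6 are higher in Mn1null and Tbxa2r, Pparg, Pde3b and Prkar2a lower, each without overlap.

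Markers of cell types, several of them known to express these genes, were read in the same way. Of all genes, 34.7% passed the threshold, 16.7% higher and 18.0% lower. Of monocyte and macrophage markers and of eosinophil markers 83.3% passed, and of megakaryocyte and platelet markers and of neutrophil markers 72.7%. Among mast cell and basophil markers the share was 58.3%, among stromal and endothelial markers 20.0% and among T, NK and B cell markers 0.0%. Of 12 monocyte and macrophage markers measured, 7 fell and 3 rose, and their mean over the list was 8.29 to 8.44 in Mn1wt and 6.70 to 6.75 in Mn1null. F13a1 fell by 5.69 and Ctss, a lysosomal protease gene, by 5.39, the same direction as Hpgd and the opposite of Tbxas1. Cd68 (-0.05) and Cx3cr1 (0.07) did not pass, while Adgre1 (1.11), Fcgr1 (1.04) and Itgam (0.84) rose.

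Of 11 megakaryocyte and platelet markers, 5 rose and 3 fell, with list means of 6.57 to 6.67 in Mn1wt and 7.01 to 7.05 in Mn1null. Thromboxane is known from platelets and also from macrophages, and of the 12 monocyte and macrophage markers 7 fell and 3 rose. Itga2b rose by 3.62 and Thbs1, also in the list of genes that respond to cyclic AMP and CREB, by 2.74. Selp (-2.69), Ppbp (-1.07) and Pf4 (-0.98) fell. Of 12 mast cell and basophil markers, 7 rose and 0 fell by limma's test, while Kit alone was lower at an unadjusted p under 0.05 (-0.17). With the 30th or 50th percentile filter, the intensity trend or 1 probe set per gene above the 30th percentile, 1 marker was called lower, and 6 rose whichever array was left out. Mcpt4, among the 7, was below the 30th percentile on all 6 arrays (0.26, adjusted p = 0.0457). List means were 7.00 to 7.02 in Mn1wt and 8.20 to 8.23 in Mn1null. Hdc rose by 4.56 and Cpa3 by 4.13, while Tpsb2 (-0.08), Tpsab1 (0.07), Cma1 (-0.15) and Mitf (-0.04) did not pass. Hpgds, itself known from mast cells, differed by -0.03, on a probe set below the median of all probe sets.

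Of 6 eosinophil markers 5 rose, Prg2 by 3.51 and Siglecf by 2.96 among them, with list means of 5.08 to 5.18 in Mn1wt and 7.12 to 7.26 in Mn1null. Of 11 neutrophil markers 7 rose, among them Ngp by 3.28, and 1, Mmp8, fell, by 4.53, with list means of 8.55 to 8.62 in Mn1wt and 9.02 to 9.07 in Mn1null. None of 9 markers of T, NK and B cells passed limma's test and none had an unadjusted p under 0.05, with list means of 4.96 to 4.99 in Mn1wt and 4.98 to 5.04 in Mn1null. The widest differences were those of Cd3e (0.18) and Cd79a (0.18). Of 10 stromal and endothelial markers 2 rose, Pecam1 by 1.78 and Pdgfrb by 1.76 (by 6.42 on its other probe set), with list means of 5.03 to 5.12 in Mn1wt and 5.35 to 5.41 in Mn1null. The collagen genes Col1a1, Col1a2 and Col3a1 gave -0.06, -0.15 and 0.07 and did not pass. Cxcl12 (0.05), Lepr (-0.04), Cdh5 (-0.18), Kdr (-0.14) and Tek (0.03) did not pass either. The part of any of these cell types in the differences of the prostaglandin genes was not tested.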

How the data were processed

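RNA of 6 samples (3 Mn1wt and 3 Mn1null, grouped by their titles) was hybridised to 1-colour Affymetrix mouse arrays. The authors deposited log2 values per probe set. The submitters' processing notes name RMA, and no version or filter was found. RMA equalises arrays and compresses low signals, so folds of dim genes are understated. The number of arrays limits the precision.

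Of 45101 probe sets, 64 controls were left out of tests. The platform annotation names 1 gene for 34945 of the other 45037, several for 932 and none for 9160. The contrast Mn1null minus Mn1wt was fitted in limma 3.58.1 (R 4.3.3; lmFit, eBayes), 2-sided, without filter or block, with Benjamini-Hochberg adjustment over 45037 probe sets and a threshold of 0.05. The steps were tested on simulated data. The probe set brightest on average over all arrays stood for its gene. A fold is 2 to the power of the log2 difference. The members and lists were chosen with earlier results of these data known, so members are described without p-values, and the counts of members past the threshold stand only beside those of all probe sets or genes. Named were all members, up to 4 genes per direction and list by size among those past the threshold without overlap, 5 profiles nearest to each member that differed by over 2, and 2 markers per cell type by size. Other genes named beside these, such as Pla2g2d, Nr4a1, Gnas, Cd68, Selp, Kit, Mcpt4 or Col1a1, and the receptors and Ptgis that did not pass, were chosen after their values were seen. Alternatives were filters at the 30th and 50th percentile, quantile normalization, centring on the median, eBayes with trend and robust settings, weights per array, a replicate block, a threshold of 0.01, other rules for probe sets and each array left out.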

Additional observations from a re-analysis of the deposited data

How the results depend on the processing

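The members were chosen on this comparison, so their values and counts under the alternatives are a description and support nothing. Leaving out arrays gave -7.09 to -6.96 for Hpgd, 0.87 to 0.96 for Ptger4 and 0.92 to 1.01 for Tbxas1. The mean of a gene's probe sets gave -5.66 for Hpgd and 1.02 for Ptger4. Probe sets designed for 1 transcript only, an alternative chosen after seeing the data, gave -4.28 for Hpgd. The count of members lower was 2, with Ptger2 beside Hpgd, under median centring, the intensity trend and the replicate block. It was also 2 with the mean of probe sets and without Mn1null replicate 2. Ptgds was called higher only with the 50th percentile filter.

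The values showed no pairing of the samples by replicate number, which 3 samples per group cannot exclude. Deviations of same-numbered samples correlated at -0.0470, 0.0990 and 0.0322, and not every sample correlated best with its own number. With the replicate block 5293 probe sets were called higher and 5903 lower, against 5926 and 6602, and the lower counts became 2 for arachidonate release, 1 for uptake into phospholipids and 1 for breakdown and transport. The calls of Plaa, Abhd6, Mboat1, Abcc4 and Creb1 were lost with the block (adjusted p = 0.0517 to 0.0731). A threshold of 0.01 gave the same 3 counts (2, 1 and 1) and 1 receptor lower, and lost the calls of the same 5 genes and of Tbxa2r. The lower genes of cyclic AMP signalling were 6 with the 50th percentile filter and 5 with 1 probe set per gene above the 30th percentile. The mean of a gene's probe sets gave 1 uptake gene lower and 5 breakdown and transport genes higher. It reversed the sign of Mboat1, which was then not called (0.14, adjusted p = 0.107). Not every gene had a probe set designed for 1 transcript. Such probe sets gave 2 of 19 release genes higher and 2 lower, 1 of 15 uptake genes lower, and 1 of 8 receptors higher and 1 lower. They gave Ptger3 at 0.20 and Mboat1 at 0.50. With them, 4 of 6 mast cell and basophil markers and 1 of 9 stromal and endothelial markers were called higher. Each array left out in turn gave 2 to 4 release, 1 to 2 uptake, 1 to 2 breakdown and transport, 1 to 2 receptor and 1 to 2 member genes lower, and values of -0.01 to 0.28 for Cd79a, which was not called. The cause of these changes was not tested. Without detection calls, dim probe sets such as those of Ptger2 and Slco2a1 limit what can be said of their genes.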
